A study of Mus musculus with 12 samples.

Results

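Adrenocortical identity was examined through 8 transcription regulators that build the gland or maintain its steroid-producing cells: Nr5a1, Nr0b1, Nr5a2, Wt1, Gata4, Gata6, Cited2 and Tcf21. They were taken by symbol from a table of 24421 genes, and all 8 were found. Adrenals of female mice aged 2 months were sequenced as whole glands, after polyA enrichment, to ask what changes when the cholesterol exporter Abcg1 is lost from the cortex. The 12 libraries comprised 4 Abcg1 cKO, 4 Abca1 cKO and 4 control adrenals, and the study set Abcg1 cKO against the other 8 taken as 1 group, called Abca1 cKO/control below. Abcg1 cKO mice carried the aldosterone synthase (Cyp11b2)-Cre and conditional alleles at both copies of Abcg1, and Abca1 cKO mice carried the same Cre and conditional Abca1 alleles. Controls carried only the Cre by the description of the series, while the methods also admit littermates with 1 of the conditional alleles. All mice were on a mixed sv129-C57BL/6 background and received no further treatment. The Cre driver is a gene of the zona glomerulosa, whose cells and their descendants form the cortex after birth, and a whole gland also holds capsule, medulla, vessels and immune cells, so only a part of the RNA came from recombined cells.

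Values are means of normalized counts that the authors formed per group, that is, read counts per gene divided by size factors and averaged over the libraries of a group. Values of single libraries carry names found in no sample label, so they were left aside: the spread between animals is not known here, no test between the groups was possible, and control was not separated from Abca1 cKO. Every ratio below is a description of a pair of means. Ratios are given on the log2(mean + 1) scale, Abcg1 cKO over Abca1 cKO/control, which understates the change of low genes. A ratio is called higher or lower past a fold of 1.2, the fold that the study's methods set. The study also required a cutoff on the adjusted p-value, which was not applied here, so calls here are broader than the study's. In whole glands, fewer cells of a type and less RNA per cell cannot be told apart. The means of all genes summed to 18889571 in Abcg1 cKO and 18311615 in Abca1 cKO/control, and the raw depth of each library is not known from them. Abcg1, counted over the whole gene, had a mean of 250 in Abcg1 cKO adrenals and 305 in Abca1 cKO/control, and Abca1 one of 10057 in Abcg1 cKO and 7791 in Abca1 cKO/control. Because Cre removes only part of the Abcg1 gene, reads from its remaining exons are still counted, and the total is a weak check of the labels. For Abca1, the combined mean includes adrenals in which Abca1 itself was inactivated, so these means cannot show whether Abca1 differed from controls. By quantitative PCR of Abcg1 cKO and control adrenals, the paper reported reduced Abcg1 transcripts and unaffected Abca1 transcripts.

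SF-1, the product of Nr5a1, is an orphan nuclear receptor without which mice form neither adrenals nor gonads, and in the adult cortex it activates the enzymes and carriers that turn cholesterol into steroids. DAX-1, the product of Nr0b1, lacks a classical DNA-binding domain and represses SF-1. Upstream of SF-1 in the adrenogonadal primordium act the zinc-finger protein WT1 and the coregulator CITED2, while GATA4 and GATA6 are zinc-finger factors of steroid-producing cells and TCF21 is a basic helix-loop-helix factor of the capsule and mesenchyme that represses Nr5a1.

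Promoter windows from RefSeq (GRCm38.p6, the build also called mm10), each running 250 bases before to 50 bases after a start site, were matched for 4 of the 8 factors. They were searched on both strands for the SF-1 element CAAGGTCA, for its half-site core AGGTCA, for the GATA elements AGATAA and TGATAA, and for the E-boxes CACGTG and CAGCTG, and AGGTCA matches include those inside CAAGGTCA. The windows below are shown because each holds a motif of another factor in the set or of its protein class. Capitals mark AGGTCA in Nr0b1 (chrX:86191525-86191824, plus strand) and in the first of the Nr5a2 windows (chr1:136960399-136960698, minus strand), AGATAA in Tcf21 (chr10:22820094-22820393, minus strand) and CACGTG in Cited2 (chr10:17722978-17723277, plus strand).
Nr0b1: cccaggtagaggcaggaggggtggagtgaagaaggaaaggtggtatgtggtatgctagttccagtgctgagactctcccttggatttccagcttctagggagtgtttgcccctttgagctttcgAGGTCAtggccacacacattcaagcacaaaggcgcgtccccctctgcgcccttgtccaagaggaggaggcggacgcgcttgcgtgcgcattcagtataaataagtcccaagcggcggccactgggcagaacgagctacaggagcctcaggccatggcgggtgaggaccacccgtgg
Nr5a2: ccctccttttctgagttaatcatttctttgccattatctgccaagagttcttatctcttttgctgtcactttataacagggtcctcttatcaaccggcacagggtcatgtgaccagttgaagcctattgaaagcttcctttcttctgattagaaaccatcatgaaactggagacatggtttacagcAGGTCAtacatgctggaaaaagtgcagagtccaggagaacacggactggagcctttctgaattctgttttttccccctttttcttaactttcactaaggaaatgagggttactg
Tcf21: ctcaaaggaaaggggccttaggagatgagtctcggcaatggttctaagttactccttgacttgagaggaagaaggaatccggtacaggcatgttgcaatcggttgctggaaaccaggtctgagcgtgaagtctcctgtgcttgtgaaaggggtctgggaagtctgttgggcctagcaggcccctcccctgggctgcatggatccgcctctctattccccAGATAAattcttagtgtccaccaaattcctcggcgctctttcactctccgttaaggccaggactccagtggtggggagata
Cited2: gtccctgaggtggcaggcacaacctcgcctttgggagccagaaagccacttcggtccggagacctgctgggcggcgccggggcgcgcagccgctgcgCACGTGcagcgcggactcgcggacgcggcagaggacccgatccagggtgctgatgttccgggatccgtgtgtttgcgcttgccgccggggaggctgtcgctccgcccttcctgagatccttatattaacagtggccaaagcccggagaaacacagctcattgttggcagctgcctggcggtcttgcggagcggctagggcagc

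With positions counted from the start site, negative before it, the half-site began at -126 in Nr0b1 and at -64 in Nr5a2. Of 32851 promoter windows in the whole table, 16.3% held the half-site on either strand, so its presence in 2 of 4 factors describes these sequences and identifies no binding. AGATAA began at -31 in Tcf21, and 18.6% of all windows held AGATAA or TGATAA. The Nr5a2 window held 3 GATA elements on the opposite strand, printed here in lower case, beginning at -217, -200 and -164. CACGTG began at -153 in Cited2, against 7.15% of all windows with this E-box, and a CAGCTG began at 13. The longer SF-1 element was in 0 of the 4 genes and in 1.56% of all windows. By base composition, the Cited2 window had 66.7% G and C with 29 CpG dinucleotides and the Nr5a2 window 42.0% with 2, beside a median of 52.7% over all windows.

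The 8 factors spanned a wide range of levels in the whole gland, and their order was almost the same in both groups. Divided by the exon length of each gene (GENCODE M21, GRCm38), the mean normalized count per kilobase of Nr5a1 was 5891 in Abcg1 cKO adrenals and 5419 in Abca1 cKO/control, more than that of any other factor of the set. Next came Cited2 at 466 per kilobase in Abcg1 cKO and 559 in Abca1 cKO/control, Nr0b1 at 464 in Abcg1 cKO and 473 in Abca1 cKO/control, and Gata6 at 420 in Abcg1 cKO and 358 in Abca1 cKO/control. In Abcg1 cKO adrenals, Cited2 and Nr0b1 were thus nearly level with each other per kilobase. Tcf21 followed at 83.6 per kilobase in Abcg1 cKO and 109 in Abca1 cKO/control, and Gata4 at 11.1 in Abcg1 cKO and 11.7 in Abca1 cKO/control. The lowest places were held by Nr5a2, at 5.87 in Abcg1 cKO and 4.81 in Abca1 cKO/control, and Wt1, at 3.83 in Abcg1 cKO and 5.43 in Abca1 cKO/control. Nr5a2 and Wt1 changed places between the groups, and with the length of the main transcript instead of all exons the order was the same in each group. Whether neighbours in this order differ beyond the spread between animals cannot be said from means.

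**Figure D1:**
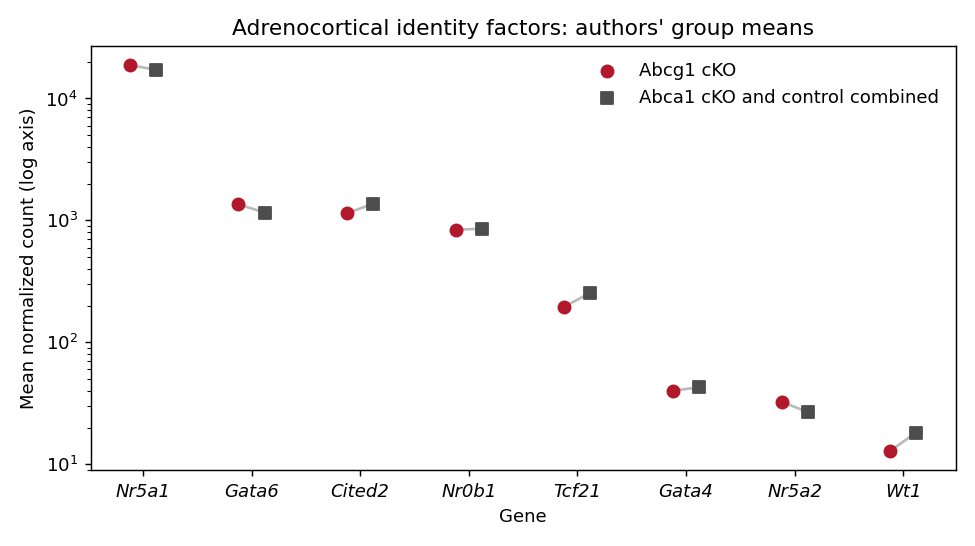
Authors' mean normalized count of each of the 8 identity factors on a log axis, with circles for Abcg1 cKO and squares for Abca1 cKO and control combined, not corrected for gene length and without error bars because only group means were used. Nr5a1 sits highest at 18734 in Abcg1 cKO and 17232 in Abca1 cKO/control, and Wt1 lowest at 12.9 in Abcg1 cKO and 18.3 in Abca1 cKO/control.

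Nr5a1 (chr2:38692656-38714542, minus strand, 7 exons in its main transcript) averaged 18734 normalized counts in Abcg1 cKO adrenals and 17232 in Abca1 cKO/control, a difference of 8.72% (log2 ratio 0.12). By mean it ranked 63 among the 14305 genes with a mean of 10 or more over all libraries, the genes on which counts below rest. A ratio at least this far from 0, in either direction, was found for 58.9% of the 192 genes with a mean over 10000. The transcript of the main activator of steroidogenesis therefore stood within the fold of 1.2 and near the middle of equally abundant genes. Nr6a1, the orphan receptor gene that neighbours it on chromosome 2, was at 144 in Abcg1 cKO and 181 in Abca1 cKO/control (log2 ratio -0.33).

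Nr0b1 (chrX:86191764-86195947, plus strand, 2 exons) had the ratio nearest to 1 of the 8 factors. Its mean normalized count was 840 in Abcg1 cKO adrenals and 855 in Abca1 cKO/control (log2 ratio -0.03), and 88.0% of the 6973 genes with a mean of 100 to 1000 had a ratio at least as far from 0. Per kilobase, Nr5a1 stood at 12.7 times the level of Nr0b1 in Abcg1 cKO adrenals and 11.5 times in Abca1 cKO/control. Nr0b2, which encodes the related repressor SHP and is no member of the set, was at 362 in Abcg1 cKO and 519 in Abca1 cKO/control (log2 ratio -0.52). In Abcg1 cKO adrenals the level of Nr0b1 per kilobase was 1.45 times that of Nr0b2, against 1.03 times in Abca1 cKO/control.

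Nr5a2 (chr1:136842571-136960448, minus strand, 9 exons) encodes LRH-1, the closest relative of SF-1, known for bile acid synthesis in liver and for ovulation. It was the only factor of the set past the fold of 1.2 in the higher direction, at 32.7 normalized counts in Abcg1 cKO adrenals and 26.8 in Abca1 cKO/control (log2 ratio 0.28). This ratio lies just past the limit of 0.26 and rests on a difference of 5.91 normalized counts. With a pseudocount of 10 it was 0.21 and no longer past the limit. Per kilobase, Nr5a1 exceeded Nr5a2 1003-fold in Abcg1 cKO and 1126-fold in Abca1 cKO/control.

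Gata6 and Gata4 encode the GATA factors of the steroid-producing lineage, GATA6 being the form that the cortex keeps after birth while GATA4 is known mainly from the fetal adrenal and the gonads. Gata6 (chr18:11052064-11085635, plus strand, 7 exons) averaged 1357 normalized counts in Abcg1 cKO adrenals and 1158 in Abca1 cKO/control (log2 ratio 0.23). It stayed within the fold of 1.2, and 11.6% of the 3991 genes with a mean of 1000 to 10000 had a ratio as far from 0. Gata4 (chr14:63198922-63271692, minus strand, 7 exons) was at 40.3 in Abcg1 cKO and 42.8 in Abca1 cKO/control (log2 ratio -0.08). Centred on the median of 6 internal control genes, the ratio of Gata6 was 0.29 and past the fold. Per kilobase, Gata6 stood at 37.9 times Gata4 in Abcg1 cKO and 30.5 times in Abca1 cKO/control.

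Over the GATA family as a whole, Gata6 took 55.0% of the summed level per kilobase in Abcg1 cKO adrenals and 52.7% in Abca1 cKO/control. Gata2 and Gata3, which chromaffin cells of the medulla also use, followed with 30.1% and 13.4% in Abcg1 cKO and with 29.6% and 15.8% in Abca1 cKO/control. Gata4 held 1.45% in Abcg1 cKO and 1.73% in Abca1 cKO/control. The mean normalized count of Gata2 was 847 in Abcg1 cKO and 741 in Abca1 cKO/control (log2 ratio 0.19), and that of Gata3 330 in Abcg1 cKO and 345 in Abca1 cKO/control (log2 ratio -0.07). Gata1, the erythroid factor, and Gata5 were below 2 in each group, so the family in this tissue was carried by 3 genes.

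Cited2 and Tcf21 had lower means in Abcg1 cKO adrenals, Cited2 within the fold of 1.2 and Tcf21 past it. Cited2 (chr10:17723218-17725674, plus strand, annotated in 1 exon in its main transcript) averaged 1145 normalized counts in Abcg1 cKO and 1372 in Abca1 cKO/control, a difference of -16.6% (log2 ratio -0.26). It stood just inside the fold of 1.2, and 8.97% of genes with a mean of 1000 to 10000 had a ratio as far from 0. Of its relatives, Cited4 was at 105 in Abcg1 cKO and 106 in Abca1 cKO/control (log2 ratio -0.02), and Cited1 at 24.0 in Abcg1 cKO and 15.3 in Abca1 cKO/control (log2 ratio 0.62). Cited2 thus made up 81.9% of the family's level per kilobase in Abcg1 cKO and 85.2% in Abca1 cKO/control.

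Tcf21 (chr10:22817281-22820174, minus strand, 2 exons) averaged 196 normalized counts in Abcg1 cKO adrenals and 255 in Abca1 cKO/control, a difference of -23.1% (log2 ratio -0.38). It was lower past the fold of 1.2, and 8.91% of genes with a mean of 100 to 1000 had a ratio as far from 0. Among the basic helix-loop-helix factors closest to it, Tcf23 was at 105.9 in Abcg1 cKO and 85.7 in Abca1 cKO/control (log2 ratio 0.30). Tcf15 was at 9.70 in Abcg1 cKO and 12.3 in Abca1 cKO/control (log2 ratio -0.32), and Msc at 1.04 in Abcg1 cKO and 1.05 in Abca1 cKO/control. Tcf21 held 69.8% of the level per kilobase of these 4 genes in Abcg1 cKO and 76.1% in Abca1 cKO/control.

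**Figure D2:**
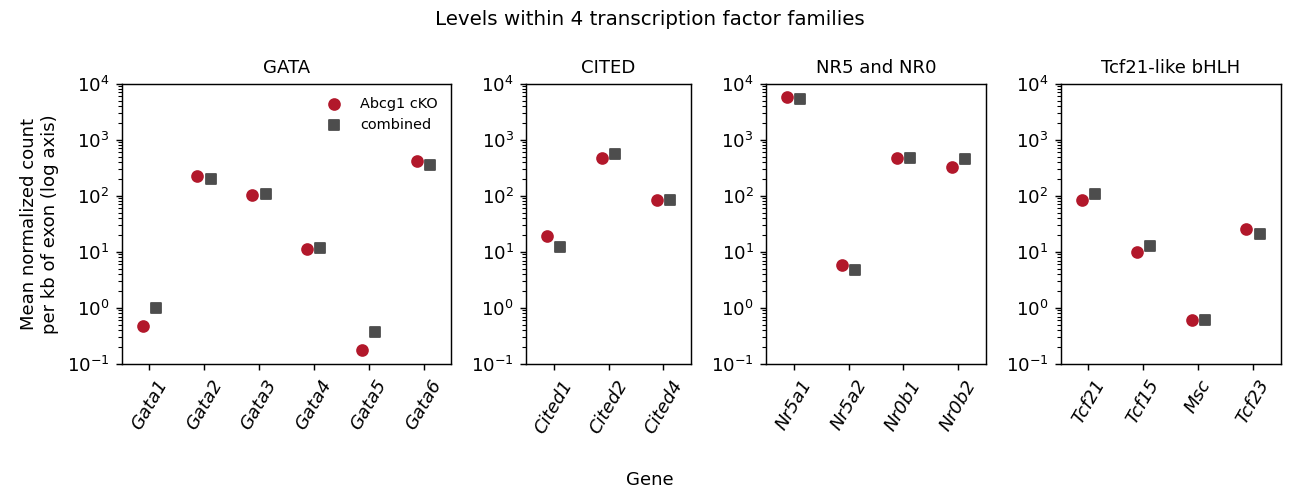
Authors' mean normalized count per kilobase of exon on a log axis for the GATA, CITED, NR5 and NR0, and Tcf21-like families, with circles for Abcg1 cKO and squares for Abca1 cKO and control combined, and no error bars. In each family 1 factor of the set sits highest: Gata6 at 420 in Abcg1 cKO and 358 in Abca1 cKO/control, Cited2 at 466 in Abcg1 cKO and 559 in Abca1 cKO/control, Nr5a1 at 5891 in Abcg1 cKO and 5419 in Abca1 cKO/control, and Tcf21 at 83.6 in Abcg1 cKO and 109 in Abca1 cKO/control.

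Wt1 (chr2:105126529-105173616, plus strand, 10 exons), known in the adult from podocytes, gonads and mesothelium, had the lowest level and the ratio farthest from 0. Its mean normalized count was 12.9 in Abcg1 cKO adrenals and 18.3 in Abca1 cKO/control (log2 ratio -0.47), a difference of -5.36 normalized counts. At this level such ratios were common: 25.9% of the 3149 genes with a mean of 10 to 100 had one at least as far from 0. The antisense gene Wt1os, which starts beside Wt1 on the opposite strand, was at 0.307 in Abcg1 cKO and 1.29 in Abca1 cKO/control. Libraries were stranded, and the sources used here do not say whether counting used the strand.

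Read against all genes, the set did not stand out in number. All 8 factors passed the mean of 10, 1 was higher and 2 were lower past the fold of 1.2, and 5 lay within it. Of the 14305 genes, 10.4% were higher and 12.2% lower, 22.6% in either direction, and with so few factors these counts are near that background. These percentages stand for 1493 genes higher and 1745 lower, and with the ratios centred on 6 internal control genes 2102 were higher and 1283 lower, a split turned round, beside 2 factors higher and 2 lower. The background also depended on level, since 49.3% of genes with a mean of 10 to 100 were past the fold in either direction, but 18.5% of those with a mean of 100 to 1000 and 8.84% of those with a mean of 1000 to 10000. Nr5a2 and Wt1 belong to the lowest of these classes, in which 17.2% of genes were higher and 32.1% lower, and Tcf21 to the class of 100 to 1000, in which 9.36% were lower. The median log2 ratio of the 8 factors was -0.05, beside 0.0013 over all genes.

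**Figure D3:**
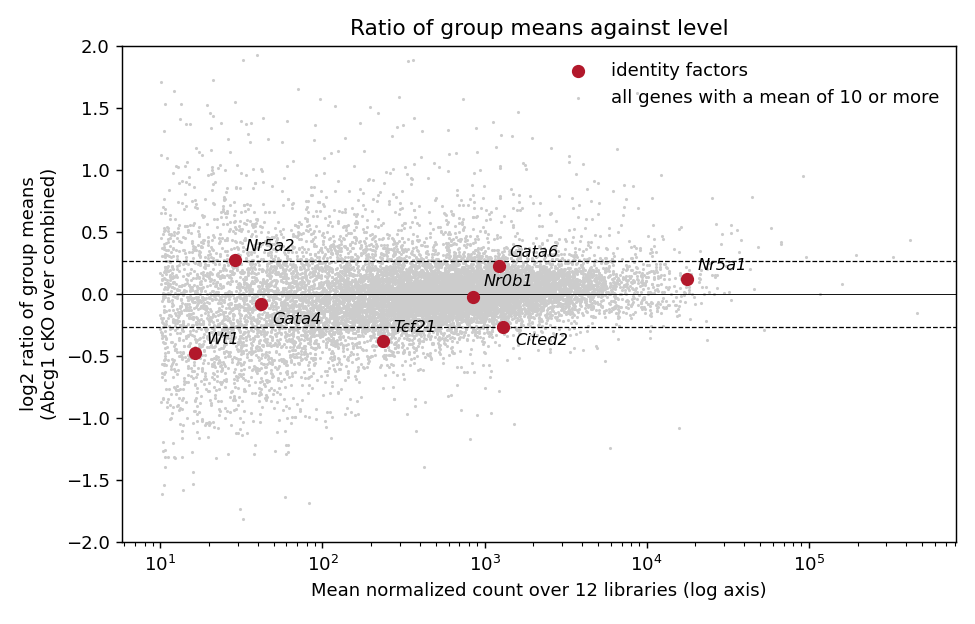
Ratio of the authors' group means on the log2 scale, Abcg1 cKO over Abca1 cKO/control, against the mean normalized count over 12 libraries on a log axis, with the 8 identity factors in red, all genes with a mean of 10 or more in grey and the fold of 1.2 dashed. The grey cloud widens toward low levels, where Wt1 sits at -0.47 and Nr5a2 at 0.28, and 61 genes beyond a log2 ratio of 2 in either direction lie outside the axis.

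Of 13 genes known as SF-1 targets in steroid-producing cells, most of them steroidogenic, 8 had higher means in Abcg1 cKO adrenals past the fold of 1.2, 1 was lower and 4 lay within it, beside 10.4% of all genes higher and 12.2% lower. Their median log2 ratio was 0.30, beside 0.0013 over all genes. Genes with a mean over 10000, to which most of this list belongs, were higher past the fold in 19.3% of cases. Akr1b7, an aldo-keto reductase of the zona fasciculata, averaged 61841 normalized counts in Abcg1 cKO and 35862 in Abca1 cKO/control (log2 ratio 0.79). Scarb1, the receptor for high-density lipoprotein, and Mrap, the accessory protein of the ACTH receptor, followed with log2 ratios of 0.77 and 0.61. Star, Fdx1, Cyp11b1, Cyp11a1 and Cyp21a1, which carry cholesterol into the mitochondrion, pass electrons or convert steroids there and in the endoplasmic reticulum, had log2 ratios of 0.44, 0.36, 0.31, 0.30 and 0.30. Fdxr, Cyp11b2, Mc2r and Hsd3b1 had log2 ratios of 0.16, 0.14, -0.07 and -0.15, all within the fold. The paper states that loss of Abcg1 left the transcripts of steroid-converting enzymes unaffected. Its gene calls also required a cutoff on the adjusted p-value, while the ratios here compare means without a test.

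Inha, which encodes the inhibin alpha subunit, was the gene of this list with the lowest ratio. Its mean normalized count was 225 in Abcg1 cKO and 363 in Abca1 cKO/control (log2 ratio -0.68). RefSeq windows were matched for 6 of the 13 targets, and 3 of these held AGGTCA and 0 held CAAGGTCA. Of all 27025 genes with windows, 4900 held AGGTCA and 476 held CAAGGTCA. With only 6 target genes, these counts describe the sequences and identify no enrichment or binding. The stretches around the half-site in Akr1b7 (chr6:34412112-34412171, plus strand) and Inha (chr1:75507509-75507568, plus strand) are shown because these genes stand at opposite ends of the list, with the half-site in capitals, on the opposite strand in Akr1b7.
Akr1b7: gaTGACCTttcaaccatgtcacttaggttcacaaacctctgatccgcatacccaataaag
Inha: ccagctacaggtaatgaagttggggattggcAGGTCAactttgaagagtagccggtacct

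The match began at -248 in Akr1b7 and at -69 in Inha. The third target with a half-site was Cyp11a1, in its second window. Akr1b7, Inha, Cyp11a1, Nr0b1 and Nr5a2, whose windows held the same letters, had log2 ratios of 0.79, -0.68, 0.30, -0.03 and 0.28, so these ratios ran in both directions.

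Among 17 cofactors of SF-1 and of the GATA proteins, 1 was higher, 2 were lower and 14 lay within the fold of 1.2, with a median log2 ratio of -0.04. Over all genes 10.4% were higher and 12.2% lower, and the cofactor counts do not stand out from that background. The 2 lower genes were Zfpm2 and Zfpm1, which encode the GATA partners FOG-2 and FOG-1. Zfpm2 averaged 100.4 normalized counts in Abcg1 cKO and 126 in Abca1 cKO/control (log2 ratio -0.32), and Zfpm1 averaged 208 in Abcg1 cKO and 257 in Abca1 cKO/control (log2 ratio -0.31). The higher gene was Ppargc1a, a coactivator of mitochondrial genes, at 44.2 in Abcg1 cKO and 34.1 in Abca1 cKO/control (log2 ratio 0.36).

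Of 17 other regulators, most of them known from adrenal or gonadal development, 13 passed the mean of 10. Among those, 2 were higher, 2 lower and 9 within the fold of 1.2 (median log2 ratio -0.0018). With so few genes, these counts are near the background of 10.4% of all genes higher and 12.2% lower. Nr4a1, an orphan receptor induced by ACTH, had the highest ratio, at 18172 normalized counts in Abcg1 cKO and 9327 in Abca1 cKO/control (log2 ratio 0.96). Cdkn1c, a cell cycle inhibitor needed for normal adrenal growth, was the other higher gene at 9057 in Abcg1 cKO and 7419 in Abca1 cKO/control (log2 ratio 0.29). Six4 had the lowest ratio, at 10.1 in Abcg1 cKO and 17.2 in Abca1 cKO/control (log2 ratio -0.71), and Osr1 was lower at 11.1 in Abcg1 cKO and 13.6 in Abca1 cKO/control (log2 ratio -0.27). Meis2, a homeodomain factor, had the middle ratio of -0.0018.

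Gata4, Wt1 and Nr5a2 are also genes of the gonads, and other genes of testis and ovary were at low levels here. Of 11 such genes 2 passed the mean of 10, and Dmrt1 and Fshr were listed at 0 in both groups. Sox9 was at 24.6 in Abcg1 cKO and 22.1 in Abca1 cKO/control, and Foxl2 at 8.14 in Abcg1 cKO and 11.9 in Abca1 cKO/control. The whole list summed to 63.2 in Abcg1 cKO and 66.9 in Abca1 cKO/control.

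The label of the tissue was checked on 5 cortical markers, Star, Cyp11a1, Cyp21a1, Hsd3b1 and Mc2r, all of which were abundant in both groups and summed to 1439870 in Abcg1 cKO and 1263150 in Abca1 cKO/control. The 3 zona glomerulosa markers, Cyp11b2, Dab2 and Agtr1b, lay within the fold of 1.2 (log2 ratios 0.14, -0.25 and -0.13). The 2 zona fasciculata markers, Cyp11b1 and Akr1b7, were higher past it (log2 ratios 0.31 and 0.79). They summed to 286602 in Abcg1 cKO and 216921 in Abca1 cKO/control. All 5 cortical markers, Cyp11b2 and both zona fasciculata markers are also among the SF-1 targets above. Their ratios are the same values and no separate observation. Markers of the cell types in which Wt1 and Tcf21 are known went different ways. The 8 capsule and fibroblast markers, none at 0, summed to 9669 in Abcg1 cKO and 9356 in Abca1 cKO/control, with 7 within the fold and Gli1, a Hedgehog response gene of capsule cells, lower at 74.1 in Abcg1 cKO and 100.6 in Abca1 cKO/control (log2 ratio -0.44). Nr2f2, Pdgfra, Dcn, Lum, Rspo3, Col1a1 and Col1a2 had log2 ratios between -0.13 and 0.15.

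All 3 mesothelial markers had lower means, and they summed to 110.1 in Abcg1 cKO and 181 in Abca1 cKO/control. Upk3b was at 6.88 in Abcg1 cKO and 45.5 in Abca1 cKO/control (log2 ratio -2.56), Msln at 61.0 in Abcg1 cKO and 88.0 in Abca1 cKO/control (log2 ratio -0.52) and Lrrn4 at 42.3 in Abcg1 cKO and 47.1 in Abca1 cKO/control (log2 ratio -0.15). Their part in the lower mean of Wt1 was not tested. The 5 kidney markers summed to 7.09 in each group, with Umod and Nphs1 listed at 0, so the podocyte marker Nphs1 was not seen beside Wt1.

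Markers of fat, medulla and lymphocytes, like those of the zona fasciculata, had ratios beyond the range of the identity factors. All 5 adipocyte markers had higher means, summing to 21535 in Abcg1 cKO and 7625 in Abca1 cKO/control (median log2 ratio 1.47), and all 6 chromaffin markers did, summing to 175735 in Abcg1 cKO and 129182 in Abca1 cKO/control (median log2 ratio 0.40). The 5 lymphocyte markers summed to 36.4 in Abcg1 cKO and 71.7 in Abca1 cKO/control, 4 of them passing the mean of 10 and all 4 lower. Endothelial, macrophage and Schwann cell markers had median log2 ratios of -0.06, 0.0038 and -0.04. The part of tissue composition in the ratios of the 8 factors was not tested.

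**Figure D4:**
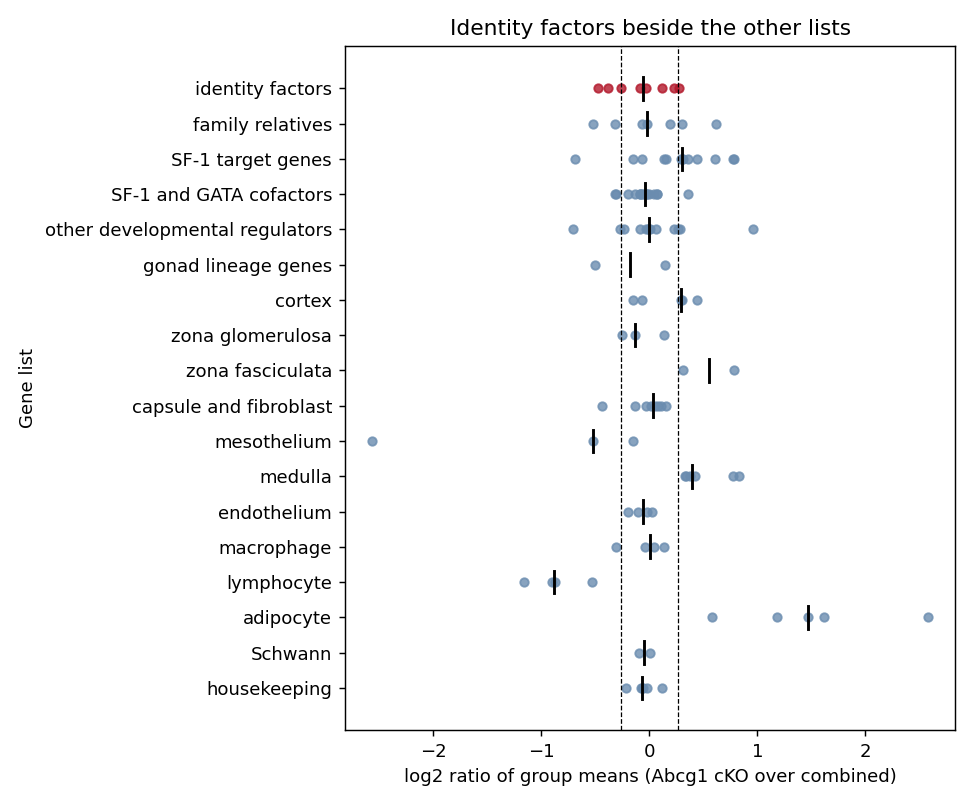
Ratio of the authors' group means on the log2 scale, Abcg1 cKO over Abca1 cKO/control, for each gene with a mean of 10 or more in the identity factors (red) and in 17 other lists (blue), with the median of each list as a bar and the fold of 1.2 dashed. The identity factors lie between -0.47 and 0.28, the SF-1 targets around a median of 0.30, and the adipocyte markers farthest to the right with a median of 1.47. A gene that belongs to several lists is drawn in each, as are the cortical and zona fasciculata markers among the SF-1 targets.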

How the data were processed

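RNA was isolated from 12 whole adrenals cleaned of fat. Per the methods and processing notes, the authors used bcl2fastq 2.20.0.422 for demultiplexing, cutadapt 4.0 for adapters, FastQC 0.11.9 for quality, STAR 2.7.10a for mapping to mm10, HTSeq 0.13.5 for counting uniquely mapped reads and DESeq2 1.38.3 for normalization. The deposited signal values used here are group means of normalized counts, that is, counts that the authors divided by size factors. The library-weighted mean of both groups matched the deposited mean over all libraries to within a relative 1.17e-08.

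A further 12 columns of single libraries have names that match no sample label, and columns of the authors' own comparison hold fold changes, standard errors and p-values. Neither was used. The tests planned per library were therefore replaced by the planned description: log2 ratios with a pseudocount of 1, called past a fold of 1.2, counted over genes whose mean was at least 10. Libraries ran on NovaSeq and NextSeq instruments, and the sources used here do not say which ran on which.

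The 8 factors and the other lists were chosen with earlier results of these data known. The text names all factors, their relatives, every SF-1 target, and the highest, middle and lowest gene of the other lists. The planned rule also named every marker gene, and markers that no statement rests on are given as sums and medians instead. The middle gene of the cofactor list is not reported here. Zfpm1, Cdkn1c, Osr1 and the neighbouring genes were named after their values were seen. Level classes, the per-kilobase levels and the motif search were also added then. Exon lengths came from the GENCODE M21 basic annotation and matched all 135 list entries by symbol. Alternatives were pseudocounts of 0.1 and 10, other filters and folds, and centring. The calling code was also run on simulated data, with changes set well past the fold limit. Because the spread between animals is not known here, that run cannot show how reliable calls near the limit are. Work was done in Python 3.11.15 with pandas 2.3.3 and numpy 2.4.6.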

Additional observations from a re-analysis of the deposited data

How the results depend on the processing

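No spread between libraries was available, so a ratio is treated as moved where it crossed the fold of 1.2 or shifted by over 0.1 on the log2 scale. With a pseudocount of 10, Nr5a2 moved to 0.21 and Wt1 to -0.30, which left 0 factors higher. Centred on the median of 6 internal control genes, a choice made after seeing the data (a shift of -0.06), Gata6 moved to 0.29 and 2 factors were higher, beside 2102 higher and 1283 lower over all genes. Other ratios of the 8 factors kept their side of the fold under both pseudocounts and both centrings. Of the 8 factors, 2 were higher and 3 lower at a fold of 1.1, and 0 were higher and 0 lower at a fold of 1.5. With a mean of 100 or more 0 were higher and 1 lower, since Nr5a2, Wt1 and Gata4 then drop out. Of the SF-1 targets, 10 were higher and 2 lower at a fold of 1.1, and 3 were higher and 1 lower at 1.5. Over all genes, 2629 were higher and 3587 lower with no filter, 950 and 735 with a mean of 100 or more, 3148 and 3406 at a fold of 1.1, and 370 and 467 at 1.5. No paired analysis was possible because columns of single libraries carry no replicate number and were not used, and for the same reason no library was left out and no fit per library was run. Ratios of the low factors Wt1, Nr5a2 and Gata4 rest on small differences between group means, of -5.36, 5.91 and -2.43 normalized counts. The part of sequencing depth in these ratios was not tested.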
